A study of Mus musculus with 3 samples.

Results

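The 10 genes examined here encode receptors for inflammatory signals, and their loci were described in the open chromatin of mouse long-term hematopoietic stem cells (LT-HSCs). They were chosen by name: *Ifnar1* and *Ifnar2* (type I interferon receptor), *Ifngr1* and *Ifngr2* (interferon-gamma receptor), *Il6ra* and *Il6st* (IL-6 receptor), *Tnfrsf1a* and *Tnfrsf1b* (TNF receptors), *Il1r1* (IL-1 receptor) and *Tlr4* (receptor for bacterial lipopolysaccharide). They are 10 of the 21668 protein-coding genes measured. The unit is the ATAC fragment, a stretch of DNA between 2 transposase cuts, and a fragment was counted in a window when at least 1 of its ends lay there. Fragments came from the 3108 of 3757 called cells with over 3000 fragments in peaks, over each mm10 gene body plus 20 kb either side, in bins of 500 bp.

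The cells came from bone marrow of 8-week-old female wild-type C57BL/6 mice (C57BL6/J in the methods), untreated as far as the labels say. They were enriched on c-Kit, sorted as LSK CD48- CD150+ CD34- cells, and profiled by DOGMA-seq, which reads chromatin, RNA and antibody tags from the same cells. The number of mice behind the preparation is not given in the labels or methods used here. The study set out to find surface markers for platelet-biased HSCs, and the deposited series holds 1 preparation with 3 libraries, of which the ATAC library was used here. With 1 library there is no replicate, no condition to compare and no p-value. All intervals are exact 95% Poisson intervals for fragments or exact 95% binomial intervals for shares of cells and, converted, for ratios of 2 counts, and they cover counting error only.

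The sorted label was checked against marker promoters, taken as 500 bp either side of the start. The promoters of *Hlf* and *Gata2*, transcription factors of HSCs, held 1736 and 1005 fragments, and all 8 HSC marker promoters passed the lower of the 2 open calls described below, which 15 of 23 markers of other cell types and 70.2% of all promoters also passed. At the stricter call 5 of the 8 passed, beside 5 of the 23 and 53.5% of all promoters. *Ly6a*, *Slamf1* and *Procr* did not pass it, with 38, 110 and 193 fragments. Of the genes the gate excludes, *Cd34* held 220 and *Cd48* 55. The 3 B cell markers held 7 to 33 fragments, the 3 T cell markers 5 to 27 and the 4 granulocyte markers 1 to 35. The 3 megakaryocyte markers *Pf4*, *Itga2b* and *Gp9* held 506 to 1084, and the macrophage marker *Cd68* held 545 while *Adgre1* held 12. Their part in the receptor values was not tested.

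Type I interferons and interferon-gamma each bind a receptor made of a pair of different chains, and both receptors signal through JAK kinases and STAT factors. IL-6 binds a chain specific to it, encoded by *Il6ra*, and then the shared signal-transducing chain encoded by *Il6st*, which several other cytokines also use. TNF binds TNFR1 (*Tnfrsf1a*) and TNFR2 (*Tnfrsf1b*), IL-1 binds IL1R1 together with an accessory chain, and TLR4 and IL1R1 share the adaptor MyD88 and lead to NF-kB. HSCs are known to respond to several of these signals during infection and blood loss.

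The DNA before the highest promoters, and at the alternative start that the results turn on, is shown first. Each run is the 250 bases just before a RefSeq start, in GRCm38.p6 and on the plus strand, which is the coding strand of these genes. Capitals mark matches to 8 short motifs searched on both strands, spelled out further below. *Ifngr1* lies at chr10:19591699-19591948, *Ifnar1* at chr16:91484965-91485214, the first *Il1r1* start at chr1:40224830-40225079 and the second at chr1:40266336-40266585.
Ifngr1: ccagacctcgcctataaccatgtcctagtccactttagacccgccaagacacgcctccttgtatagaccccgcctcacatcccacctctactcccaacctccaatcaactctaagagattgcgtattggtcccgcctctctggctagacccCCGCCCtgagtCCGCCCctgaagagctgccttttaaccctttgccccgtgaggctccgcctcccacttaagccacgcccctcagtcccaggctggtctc
Ifnar1: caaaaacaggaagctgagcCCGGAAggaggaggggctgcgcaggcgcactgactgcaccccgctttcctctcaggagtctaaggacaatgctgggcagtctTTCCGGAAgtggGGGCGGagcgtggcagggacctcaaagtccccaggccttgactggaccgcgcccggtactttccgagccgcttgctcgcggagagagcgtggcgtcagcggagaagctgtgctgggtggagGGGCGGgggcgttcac
Il1r1 first start: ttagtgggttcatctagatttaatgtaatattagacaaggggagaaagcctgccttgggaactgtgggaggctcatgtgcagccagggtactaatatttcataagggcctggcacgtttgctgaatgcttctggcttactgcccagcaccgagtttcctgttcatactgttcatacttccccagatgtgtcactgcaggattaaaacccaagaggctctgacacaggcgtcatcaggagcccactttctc
Il1r1 second start: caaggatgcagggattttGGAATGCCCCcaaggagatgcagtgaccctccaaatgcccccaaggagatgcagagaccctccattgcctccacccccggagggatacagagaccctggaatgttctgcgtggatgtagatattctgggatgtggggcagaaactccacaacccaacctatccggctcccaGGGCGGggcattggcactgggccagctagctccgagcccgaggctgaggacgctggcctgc

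In *Ifngr1* the capitals are 2 matches to the SP/KLF motif. In *Ifnar1* they are 3 matches to the ETS motif, of which 2 overlap on opposite strands, and 2 to the SP/KLF motif. The run before the first *Il1r1* start held no match to any of the 8 motifs, and that before the second held 1 to NF-kB and 1 to SP/KLF. The 250 bases held 2214 fragments at *Ifngr1*, 2088 at *Ifnar1*, 280 at the first *Il1r1* start and 96 at the second.

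Promoters of the 10 receptors were all open, and they spanned from 285 to 2949 fragments. The median 500-bp bin of the genome held 1 fragment and the mean bin 9.72. A bin was called open at 10 times the median (10 fragments, or 20 over the 1000 bp of a promoter) and, in a stricter call added after that median was seen, strongly open at 10 times the mean (97.2 fragments in a bin, or 194 over a promoter). All 10 receptor promoters passed both calls. Of all protein-coding promoters 70.2% passed the first and 53.5% the second, and the count of 10 is to be read against these shares. The median receptor promoter held 565.5 fragments, against 251 over all protein-coding genes.

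**Figure D1:**
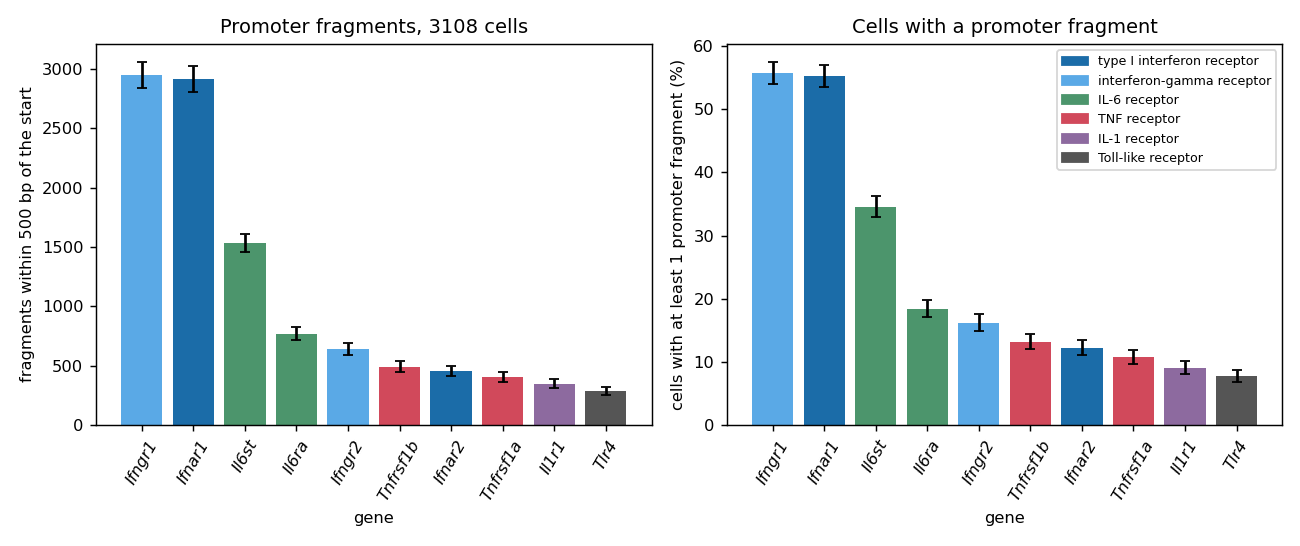
Fragments within 500 bp of the start (left) and the percent of the 3108 cells with at least 1 such fragment (right) for each gene, ordered by level and colored by receptor. Bars are totals of 1 library with exact 95% intervals. *Ifngr1* (2949) and *Ifnar1* (2914) stand above all others, and *Tlr4* (285) is lowest.

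For the type I interferon receptor, one chain was far more open than the other. The promoter of *Ifnar1* (start at chr16:91485238, plus strand) held 2914 fragments (95% interval 2809 to 3022), 150 times the mean bin, and a fragment was seen in 1717 cells (55.2%, 53.5 to 57.0). The promoter of *Ifnar2* (start at chr16:91372783, plus strand), which encodes the chain with the higher affinity for the ligand, held 456 fragments (415 to 500) and was seen in 381 cells (12.3%, 11.1 to 13.5). The *Ifnar1* promoter was thus 6.39 times as high as that of *Ifnar2* (5.79 to 7.07). Among all protein-coding promoters *Ifnar1* stood at percentile 95.7 and *Ifnar2* at percentile 59.8.

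The chains of the interferon-gamma receptor also differed. *Ifngr1* (start at chr10:19591949, plus strand), which encodes the ligand-binding chain, held 2949 fragments (2844 to 3057) at its promoter, in 1731 cells (55.7%, 53.9 to 57.5). *Ifngr2* (start at chr16:91547072, plus strand), which encodes the signaling partner, held 641 (592 to 693), in 502 cells (16.2%, 14.9 to 17.5). The ratio of the pair was 4.60 (4.22 to 5.02). *Ifngr1* and *Ifnar1* could not be told apart, with a ratio of 1.01 (0.961 to 1.07), and they were the 2 highest of the 10.

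The IL-6 receptor chains came next. *Il6st* (start at chr13:112464070, plus strand) held 1531 promoter fragments (1455 to 1610), in 1075 cells (34.6%, 32.9 to 36.3). *Il6ra* (start at chr3:89913162, minus strand) held 767 (714 to 823), in 573 cells (18.4%, 17.1 to 19.8). The shared chain was thus 2.00 times as high as the IL-6-specific one (1.83 to 2.18). Several protein-coding starts are annotated for *Il6st*, and the first carried nearly all the fragments: the start 8529 bp downstream held 12 fragments and those 10938 and 10976 bp downstream held 8 and 6. An antisense transcript, Gm42809, starts at chr3:89912916 inside the *Il6ra* promoter window, and fragments carry no strand, so the fragments there cannot be divided between both transcripts.

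The promoters of both TNF receptors were close to each other and in the lower part of the order. *Tnfrsf1b* (start at chr4:145246870, minus strand) held 490 fragments (448 to 535), in 409 cells (13.2%, 11.99 to 14.4). *Tnfrsf1a* (start at chr6:125349723, plus strand) held 401 (363 to 442), in 334 cells (10.7%, 9.68 to 11.9). Their ratio was 1.22 (1.07 to 1.40). TNFR1 is found on most cell types and TNFR2 mainly on blood and endothelial cells, and their promoters stood at percentiles 57.4 and 61.1.

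*Il1r1*, whose product receives IL-1, was open at 2 separate starts. The start of its principal transcript (chr1:40225080, plus strand) held 346 fragments (310 to 384), in 282 cells (9.07%, 8.09 to 10.1). A second annotated protein-coding start lies 41506 bp downstream at chr1:40266586, in the first intron of the principal transcript, and held 258 fragments (227 to 291), in 216 cells (6.95%, 6.08 to 7.90). The first start was 1.34 times as high as the second (1.14 to 1.58), and 32 of the 466 cells with a fragment at either start had one at both. Coverage per cell was sparse, so a cell with no fragment at a start is not shown to have it closed. Both starts passed the strict call, and *Il1r1* was the only gene of the 10 with 2 separate strongly open sites at its own starts.

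*Tlr4* was lowest. Its start (chr4:66827584, plus strand) held 285 fragments (253 to 320), in 239 cells (7.69%, 6.78 to 8.68), at percentile 51.8 of all protein-coding promoters. A level this low among the receptors was still 14.7 times the mean bin. The *Tlr4* window was the emptiest, promoter included: 91 of its 286 bins held no fragment and its median bin held 1 fragment. It held 5.84 fragments per kb against 80.8 over the *Ifngr1* window, and 34.2% and 62.6% of these lay in the promoters.

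In order of level the promoters ran *Ifngr1*, *Ifnar1*, *Il6st*, *Il6ra*, *Ifngr2*, *Tnfrsf1b*, *Ifnar2*, *Tnfrsf1a*, *Il1r1*, *Tlr4*. The intervals of neighbors overlapped for *Ifngr1* with *Ifnar1*, and for each step from *Tnfrsf1b* down to *Tlr4*. They did not overlap for the 4 steps from *Ifnar1* to *Tnfrsf1b*. As ratios of counts, *Tnfrsf1b* over *Ifnar2* was 1.07 (0.944 to 1.22) and *Ifnar2* over *Tnfrsf1a* 1.14 (0.992 to 1.30). *Tnfrsf1a* over *Il1r1* was 1.16 (1.001 to 1.34) and *Il1r1* over *Tlr4* 1.21 (1.03 to 1.43), and these 2 intervals lay above 1. *Tlr4* still lay below *Tnfrsf1a*, whose interval began at 363 where that of *Tlr4* ended at 320.

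The fragments of these promoters also differed in length and in where the transposase cut. Short fragments, below the length of DNA that wraps 1 nucleosome, made up 70.5% at *Ifngr1* and 69.3% at *Ifnar1*, but 39.3% at *Ifnar2* and 33.7% at *Tnfrsf1a*. Over all strongly open promoters the share was 58.0%, and over all fragments of the cells 45.6%. The densest 50 bp of fragment ends lay within 150 bp of the start in all 10 genes: from -150 to -101 bp at *Ifnar1*, from -100 to -51 bp at *Il1r1* and *Tlr4*, from 0 to 49 bp at *Ifnar2*, and from -50 to -1 bp at the other 6. Of the ends within 2000 bp, 75.5% lay upstream of the start at *Il1r1* and 73.9% at *Ifnar1*, against 24.9% at *Ifnar2*. Further protein-coding starts of *Ifnar2* lie 67 and 116 bp downstream and held 470 and 496 fragments. The *Ifnar2* share depends on the start used.

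**Figure D2:**
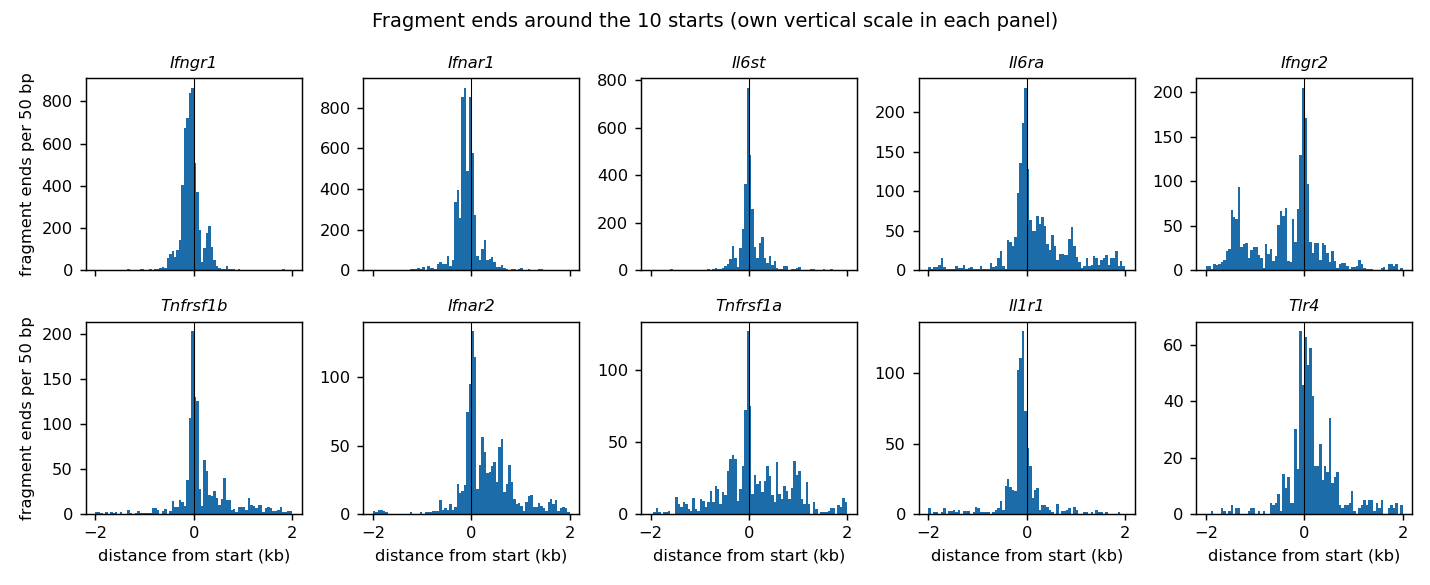
Fragment ends per 50 bp against distance from the start in kb for each gene, in the 3108 cells, with the start at 0 and positive values along the gene. Each panel has its own vertical scale. The highest bar lies within 150 bp of the start in every panel, with lower side peaks in several. Ends spread over more of the 2 kb on one or both sides in several panels, such as *Ifngr2*, *Ifnar2*, *Tnfrsf1a* and *Il6ra*.

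Over their whole length, promoters included, the 10 windows held a larger share of open bins than gene windows in general. Of their 1665 bins, 611 (36.7%) were open, where 10.9% of all bins of chromosomes 1 to 19 and X and 17.4% of bins in the windows of all protein-coding genes were. At the strict call 86 bins (5.17%) passed, where 1.44% of all bins and 2.42% of bins in gene windows did. Joining open bins that touch gave 124 distal sites, defined as over 1 kb from every annotated start, besides 13 sites at starts of the receptors and 11 at starts of neighbors. At the strict call sites were joined and classed anew, which gave 30 distal sites, 11 promoter sites and 5 neighbor promoter sites. Of the 124 distal sites, 22 held a bin past the strict call. Some strict distal sites, that in the first intron of *Tnfrsf1b* among them, were part of wider sites at a start at the lower call.

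The strongly open distal sites were spread unevenly over the receptors. The *Tnfrsf1b* window held 7 and the *Tnfrsf1a* window 6, the *Il6ra* window 4 and the *Ifnar2* window 3. *Ifnar1*, *Ifngr1*, *Ifngr2* and *Il6st* had 2 each, and *Il1r1* and *Tlr4* had 1 each. The share of a window's fragments that lay in its promoter followed another order: it was 63.8% at *Il6st*, 62.6% at *Ifngr1* and 60.5% at *Ifnar1*, and 9.55% at *Tnfrsf1b*, 10.2% at *Tnfrsf1a* and 13.4% at *Ifnar2*.

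**Figure D3:**
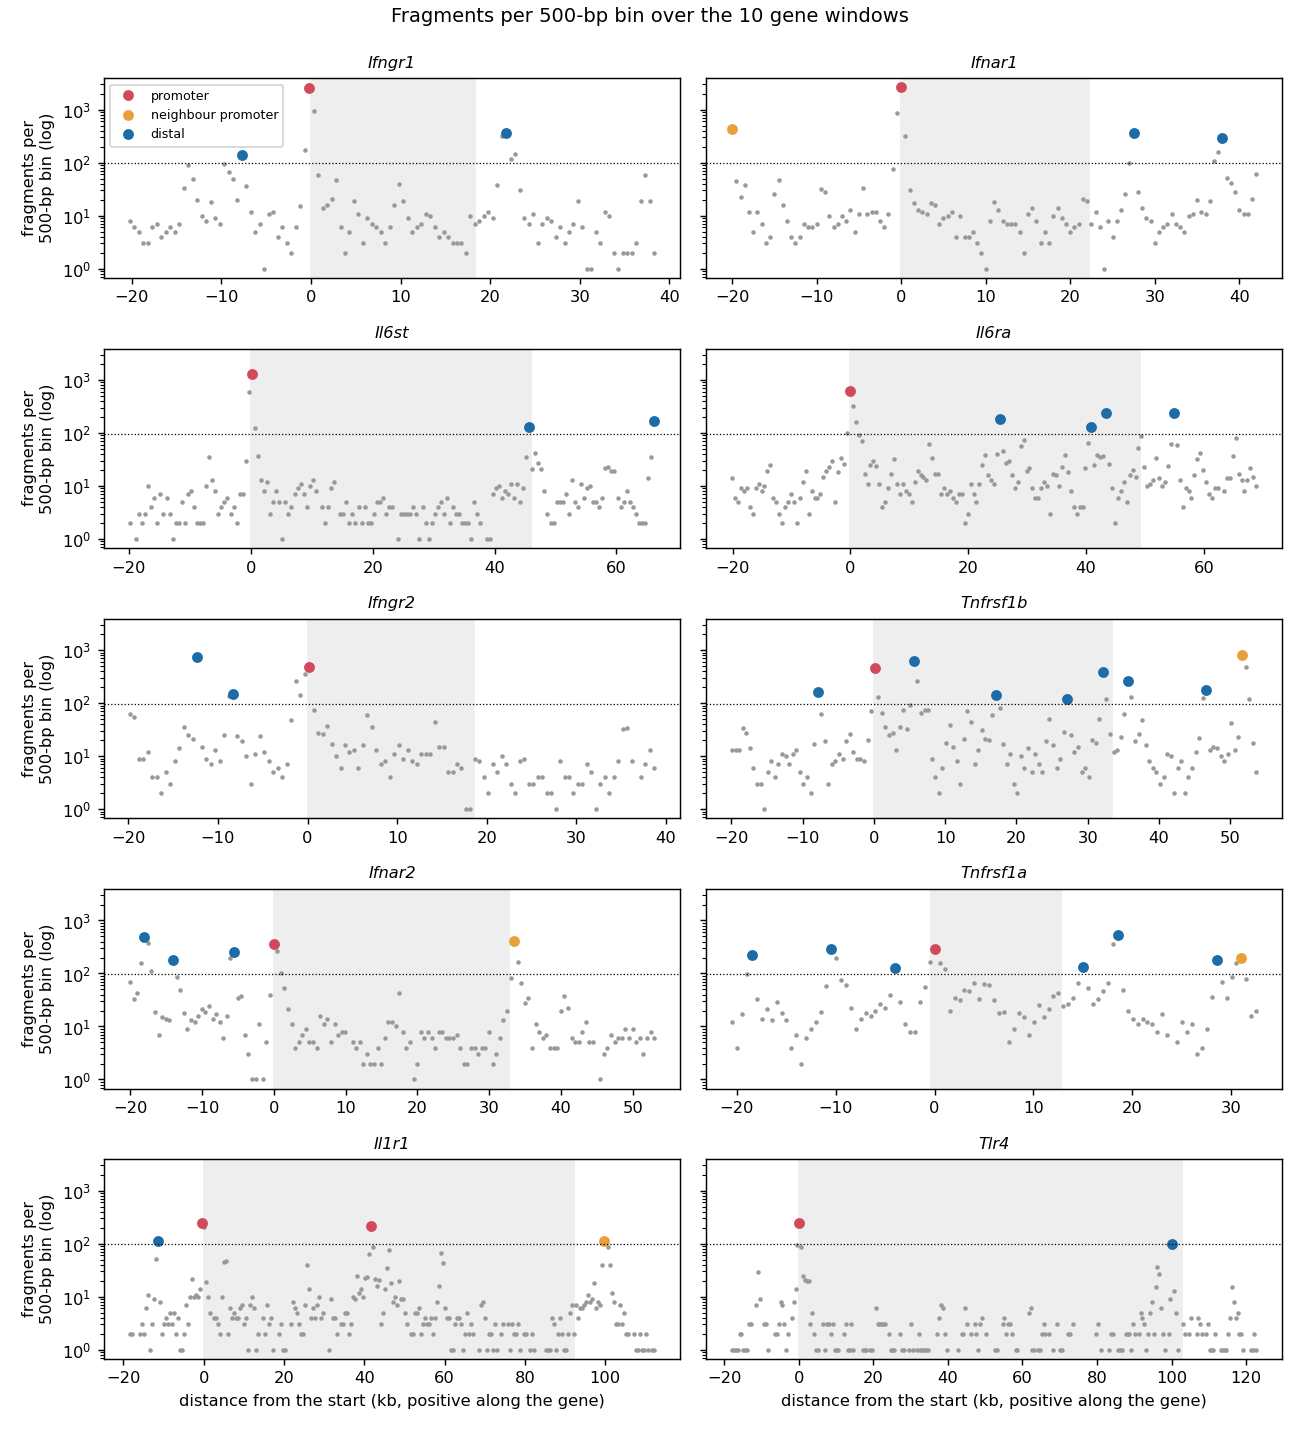
Fragments per 500-bp bin (log axis) against distance from the start in kb over each gene body (shaded) plus 20 kb either side; bins with no fragment are not drawn. Colored points mark the highest bin of each site past 10 times the mean bin (dotted line, 97.2 fragments), red at a start of the gene, orange at a start of a neighbor and blue elsewhere. *Tnfrsf1b* has 7 blue points and *Tnfrsf1a* 6, and *Tlr4* has 1.

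In 4 of the 10 genes the highest distal bin exceeded the highest promoter bin, namely in *Ifngr2*, *Tnfrsf1b*, *Ifnar2* and *Tnfrsf1a*. The same was true of 14.7% of all protein-coding genes with a strongly open promoter, and of 13.7% of those whose windows span 50 to 150 kb. The DNA under these 4 sites is shown as the 200 bases with the most fragment ends in the bin, in GRCm38.p6 on the plus strand, with motif matches in capitals. They lie at chr16:91534555-91534754 upstream of *Ifngr2*, at chr16:91354655-91354854 upstream of *Ifnar2*, at chr4:145241091-145241290 in the first intron of *Tnfrsf1b*, and at chr6:125368008-125368207 downstream of *Tnfrsf1a*.
Ifngr2 upstream site: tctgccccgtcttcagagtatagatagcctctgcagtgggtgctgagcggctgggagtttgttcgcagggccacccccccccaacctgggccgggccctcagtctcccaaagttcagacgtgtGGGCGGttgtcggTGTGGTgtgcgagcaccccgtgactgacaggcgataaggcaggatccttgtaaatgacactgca
Ifnar2 upstream site: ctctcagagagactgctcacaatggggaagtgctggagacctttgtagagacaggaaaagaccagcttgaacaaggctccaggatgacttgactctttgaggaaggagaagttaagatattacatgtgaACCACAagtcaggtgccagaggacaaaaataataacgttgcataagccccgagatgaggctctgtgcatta
Tnfrsf1b intron site: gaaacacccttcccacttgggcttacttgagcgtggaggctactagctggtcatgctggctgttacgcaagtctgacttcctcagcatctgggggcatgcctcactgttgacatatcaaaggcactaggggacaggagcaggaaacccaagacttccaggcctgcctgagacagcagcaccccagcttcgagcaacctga
Tnfrsf1a downstream site: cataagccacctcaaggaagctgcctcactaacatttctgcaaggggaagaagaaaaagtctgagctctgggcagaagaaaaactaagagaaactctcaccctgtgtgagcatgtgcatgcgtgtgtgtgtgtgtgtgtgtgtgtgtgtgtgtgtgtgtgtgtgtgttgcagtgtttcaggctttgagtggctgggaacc

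The capitals are 1 match to SP/KLF and 1 to RUNX upstream of *Ifngr2*, and 1 match to RUNX upstream of *Ifnar2*. The 200 bases of the *Tnfrsf1b* intron and those downstream of *Tnfrsf1a* held none of the 8 motifs. The latter contain a long run of repeated tg, and the part of this repeat in the count was not tested.

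The site upstream of *Ifngr2* was the highest distal site of all 10 windows. Its bin at -12.3 kb held 757 fragments (704 to 813), in 19.7% of cells, against 482 in the highest promoter bin, a ratio of 1.57 (1.40 to 1.76). It lies between genes. Short fragments alone gave a ratio of 3.11.

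The *Tnfrsf1b* site lies 5.62 kb inside the gene, in intron 1, and held 618 fragments (570 to 669) in 16.2% of cells, 1.36 times the highest promoter bin (1.21 to 1.54). A further site of this gene, at 32.1 kb and overlapping exon 10, held 391 fragments. For *Tnfrsf1a* the highest distal bin lay 18.5 kb downstream of the start, past the end of the gene and within the neighboring gene *Plekhg6*, and held 534 fragments (490 to 581) in 14.0% of cells. That was 1.86 times its highest promoter bin (1.61 to 2.16).

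The *Ifnar2* site lies at -18.0 kb, near the edge of the window, and held 497 fragments (454 to 543) in 12.3% of cells, 1.40 times the highest promoter bin (1.22 to 1.61). With bins shifted by 250 bp this ratio was 1.03, and with 500-bp windows slid in 50-bp steps it was 1.26, so its size rests on where the bins begin. A pair of further sites stands between it and the gene, with 180 fragments at -14.0 kb and 253 at -5.53 kb.

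In the other 6 genes the promoter was the highest point of the window, neighbors aside. The highest distal bin of *Ifngr1*, at 21.8 kb and downstream of the gene, held 368 fragments, 0.143 times its promoter bin. That of *Ifnar1*, at 27.5 kb and also downstream of the gene, held 358 (0.136 times), and that of *Il6st*, at 66.2 kb within the gene *Il31ra*, held 167 (0.129 times). These are the genes with the highest promoters of the 10.

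The remaining 3 genes had lower promoter bins than those. The highest distal bin of *Il6ra* lay 54.9 kb downstream of its start within the gene *She* and held 236 fragments, 0.386 times the promoter bin. *Il1r1* had its single strong distal site at -11.3 kb, with 111 fragments. *Tlr4* had its only one at 100.2 kb, past the end of the principal transcript but inside the longer annotated one, with 99 fragments, which is just over the limit of 97.2.

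**Figure D4:**
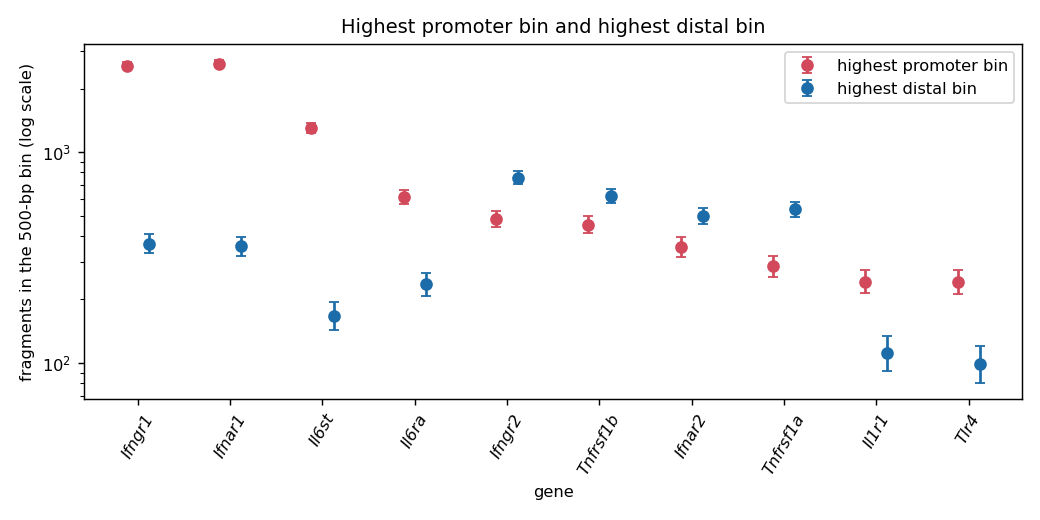
Fragments (log axis) in the highest promoter bin (red) and the highest distal bin (blue) of each gene, with exact 95% Poisson intervals, from the 3108 cells. Blue lies above red for *Ifngr2*, *Tnfrsf1b*, *Ifnar2* and *Tnfrsf1a*, and below it for the other 6 genes.

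The chromosome 16 genes lie side by side, in the order *Ifnar2*, *Il10rb*, *Ifnar1*, *Ifngr2*, all on the plus strand within 193 kb. *Il10rb* encodes a chain shared by the receptors for IL-10 and for lambda interferons, and its promoter, inside the *Ifnar2* window, held 460 fragments, next to 456 for *Ifnar2*. Within this cluster *Ifnar1* stood far above the other 3 promoters. The *Ifnar1* and *Ifngr2* windows share 1 bin, and sites were counted once.

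Other protein-coding neighbors with starts in the windows were *Gm21970* (7 promoter fragments, in the *Ifnar2* window), *Vps13d* (1019 promoter fragments, downstream of *Tnfrsf1b*), *Plekhg6* (266, downstream of *Tnfrsf1a*), *Il1rl2* (154, downstream of *Il1r1*) and *Il22ra2* (19, downstream of *Ifngr1*). The pseudogenes *Gm7856* and *Gm7860*, the miRNA gene *Mir6367* and *Gm38070* also start there, and their promoters were not counted. *Vps13d* was higher than the *Tnfrsf1b* promoter itself. *Il22ra2* encodes a soluble IL-22 binding protein, and its promoter, with 19 fragments over 1000 bp, missed even the lower call, close by one of the highest promoters of the set. A distal site cannot be assigned to one gene or another from these data.

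Other genes of the same pathways were counted at the strict call, which 53.5% of all protein-coding promoters passed. All 14 proximal signaling genes passed the strict call, with a median of 760.5 promoter fragments: the kinase gene *Jak2* held 2728 and the adaptor gene *Traf2* 2101, and the lowest were the adaptor genes *Ticam2* (200) and *Tradd* (274). JAK2 acts at the interferon-gamma receptor, and TRAF2 and TRADD are adaptors in TNF receptor signaling. Of 8 partner and accessory chains 5 passed the strict call, led by *Il11ra1* (688), which pairs with the *Il6st* product, and *Il1rap* (650), the accessory chain of IL1R1. The lowest were *Lifr* (52) and *Osmr* (70), other partners of the *Il6st* product.

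Related receptors were mostly lower than the 10. Of 8 related and decoy receptors 1 passed the strict call, *Il1r2* (422), the decoy that binds IL-1 without signaling, followed by *Ifnlr1* (169), and the lowest were *Il1rl1* (4), the IL-33 receptor, and *Il18r1* (79). The decoy promoter held more fragments than that of *Il1r1* (346). Of 11 other Toll-like receptors 2 passed, *Tlr2* (499) and *Tlr3* (235), while *Tlr8* (3) and *Tlr11* (5) missed both calls. *Tlr2*, which senses bacterial lipoproteins, was thus higher than *Tlr4* (285).

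Of 7 other TNF receptor family genes 5 passed, led by *Tnfrsf21* (1037) and *Ltbr* (781), the lymphotoxin receptor, with *Cd40* (70) and *Tnfrsf10b* (186) lowest. Of the 10 ligand genes 3 passed. *Il6* (465) and *Tnf* (212) were highest, and *Il1a* (6) and *Ifng* (7) lowest, so ligand promoters had a median of 31 fragments against 565.5 for the receptors. The lists were chosen with earlier results of these data known, and the counts describe them only.

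Set beside other cytokine receptors, the 10 genes were higher on the whole but not separate. The 14 cytokine receptor genes, including that for SCF (*Kit*, 1117), had a median of 168.5, with 12 open and 7 strongly open (70.2% and 53.5% over all promoters). The highest of them was *Il3ra* (1402) and the lowest were *Il5ra* (10) and *Il7r* (11). *Ifngr1* and *Ifnar1* exceeded all 14, while *Tlr4* and *Il1r1* exceeded 9 of them. The 23 markers of other cell types had a median of 33, with 15 open and 5 strongly open. The median of the 10 receptors was 3.36 times that of the cytokine receptors and 17.1 times that of the other cell type markers. With promoters widened to 1000 bp either side the first ratio was 1.89 and the second 11.2.

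**Figure D5:**
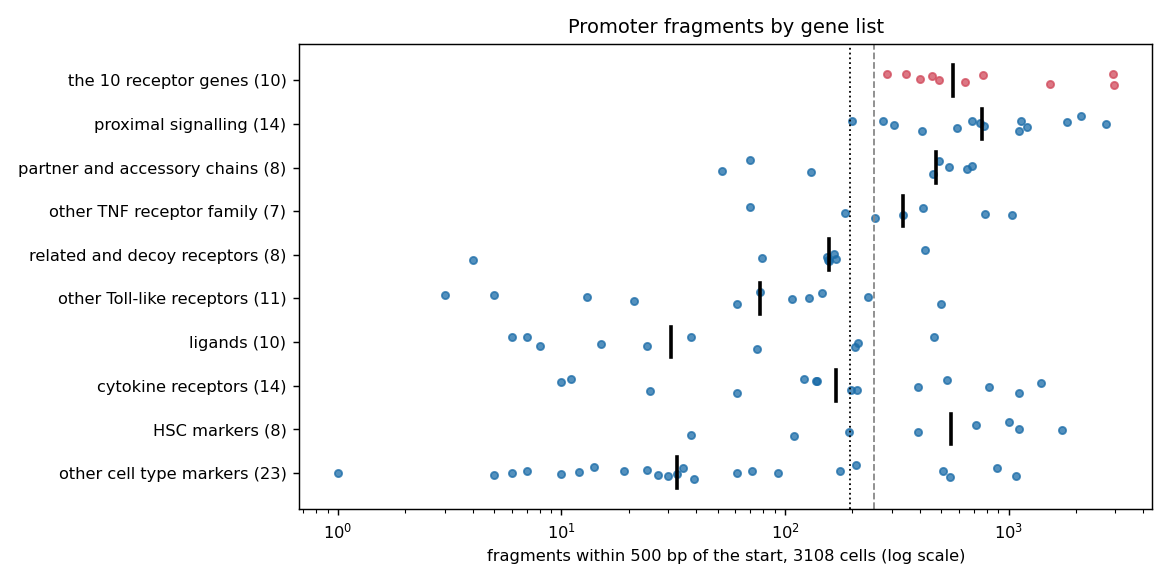
Fragments within 500 bp of the start (log axis) for each gene of 10 lists, from the 3108 cells; red points are the 10 receptors, blue points other lists, black bars medians, the dashed line the median of all protein-coding genes (251) and the dotted line the strict call (194). All red points and all proximal signaling genes lie right of the dotted line, and most ligands and markers of other cell types lie left of it.

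The promoter sequences also varied. RefSeq promoter entries, from 250 bases before to 50 after a start, were found for 9 of the 10 genes, with 2 for *Il1r1*, and *Tlr4* had none. Their GC content ran from 49.3% at the first *Il1r1* start to 74.3% at *Ifngr2*, where the median of all 32585 entries was 53%. The observed over expected CpG ratio was 0.943 at *Il6st* and 0.274 at the first *Il1r1* start, which is low in CpG, and 0.465 at the second, where the median of all entries was 0.386. Beside the promoter fragments, GC was 49.3% at the first *Il1r1* start (346), 57% at both *Tnfrsf1a* (401) and *Ifnar2* (456), 62.7% at *Tnfrsf1b* (490), 66% at *Il6ra* (767), and 68.3% at both *Il6st* (1531) and *Ifnar1* (2914). It was 60.3% at *Ifngr1* (2949), 74.3% at *Ifngr2* (641) and 63.3% at the second *Il1r1* start (258). The part of GC content in the levels was not tested.

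The 8 motifs, each the core letters that a family of factors is known to prefer, were searched on both strands. For ETS factors they were CCGGAA, for RUNX factors TGTGGT, for GATA factors AGATAA and for SP/KLF factors GGGCGG. For AP-1 they were TGANTCA, and the NF-kB consensus was searched by its usual letters. The interferon-stimulated response element ISRE was searched as GAAANNGAA, and the STAT element GAS was searched as TTCNNNGAA. ISRE and GAS matches can overlap each other. Of the 10 entries, 7 held SP/KLF, against 35.9% of all entries. ETS was in 4 (14.98% of all) and GAS in 4 (8.33%). The entries were not limited to open promoters, and the shares among strongly open promoters alone were not counted.

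Other motifs were in few of the receptor promoters. NF-kB was in 2 of the 10 entries (4.53% of all), ISRE in 1 (8.52%), at *Tnfrsf1b*, and GATA in 1 (11.2%), at *Il6ra*. RUNX (16.6% of all) and AP-1 (7.85%) were in none. Matches are descriptions of letters, not of binding.

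The distal bins were searched for the same letters. Of the 30 highest bins of the strongly open distal sites, 13 (43.3%) held RUNX, against 37.5% of the 36842 strongly open bins of the genome over 1 kb from a start. GAS and AP-1 were each in 7 (23.3%), against 14.1% and 15.4%. GATA was in 6 of the 30 (21.2% over the genome) and SP/KLF in 5 (16.7%, against 20.2%). ETS and ISRE were each in 4 (13.3%, against 10.7% and 15.7%) and NF-kB in 3 (10.0%, against 6.94%).

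Seen per cell, the receptor promoters were sparsely covered. The median cell had a fragment at 2 of the 10 promoters, the highest at 9, and 223 cells (7.18%) at none. Depth differed between cells: the shallowest 25% of cells had a median of 7455 fragments and the deepest 25% one of 15516.5. A fragment at the *Ifngr1* promoter was seen in 42.5% (39.0 to 46.0) of the shallowest 25% and 68.0% (64.6 to 71.3) of the deepest 25%, and at *Tlr4* in 5.41% (3.92 to 7.24) and 10.8% (8.70 to 13.2). A cell with no fragment is therefore not shown to have a closed promoter.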

How the data were processed

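The members and gene lists were chosen with earlier results of these data known. The authors mapped the reads with Cell Ranger ARC 2.0.2 to mm10, collapsed duplicate read pairs and called cells. They deposited counts of fragments per barcode and a list of fragments with the count of read pairs behind each. None of these counts was normalized, and the RNA and antibody libraries were not used here. The submitters' processing notes name Cell Ranger ARC and mm10. The file holds 42000180 fragments, and the 3108 cells used held 37137164 on chromosomes 1 to 19 and X, with 3970 to 194134 (median 11442) per cell. No fragment or gene ended beyond its chromosome in GRCm38. Doublets were kept, since the methods name no removal.

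Starts were those of the principal protein-coding transcript in GENCODE vM21 basic (APPRIS, then the longest). A site was distal when over 1 kb from every annotated start. Counting was checked against a direct count. Intervals were tested on counts simulated as Poisson, which lack the clustering of fragments within cells, so that test does not cover such clustering. The genes named are the 10 members, the 2 highest and 2 lowest of each pathway class, neighbors with a start in a window, the highest promoter and distal site of each member, and markers; *Kit*, *Il3ra*, *Il5ra*, *Il7r* and further distal sites were named after their values were seen. Alternatives were other ways to count fragments, other cells, thresholds, promoter widths, starts and bin grids. Python 3.11.15, numpy 2.4.6, scipy 1.17.1, pandas 2.3.3 and matplotlib 3.10.9 were used. Fragments mapped to repeats or to near-identical copies could not be checked from the deposited files.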

Additional observations from a re-analysis of the deposited data

How the results depend on the processing

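All 10 receptor promoters stayed open under all 11 alternatives run, and 4 genes kept a distal bin above the promoter bin under all 6 run. Of the 9 steps in the order of promoters, 7 held with promoters 1000 bp wide either side, and 8 or 9 under the other 8 alternatives. Counts of sites and bins depended on the threshold. Open bins numbered 611 in the report, 1007 at 5 times the median bin, 330 at 20 times and 86 at 10 times the mean bin. Distal sites numbered 124 in the report, 82 at 20 times the median and 30 at 10 times the mean bin. At 10 times the mean bin, 7 cytokine receptor promoters and 5 promoters of other cell type markers were open, in place of 12 and 15, and at 20 times the median bin 9 of the latter. With promoters of 1000 bp either side the median of the 10 receptors was 1.89 times that of the cytokine receptors and 11.2 times that of the other markers. Percentiles moved beyond their counting interval at *Il1r1* (51.3 to 59.5) and at *Tnfrsf1a* (53.9 with short fragments alone). With those fragments alone the median bin was 0, so open calls could not be made. The call at 10 times the mean bin and the settings for the distal to promoter comparison were chosen after seeing the data. The cells that passed all quality filters were the same 3108 cells. No paired analysis was possible because each library type has 1 sample.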

Other observations

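Cells with a fragment at the promoters of both chains were counted. A fragment at both promoters was found in 234 cells (7.53%, 6.63 to 8.51) for *Ifnar1* and *Ifnar2*, and in 287 (9.23%, 8.24 to 10.3) for *Ifngr1* and *Ifngr2*. For *Il6ra* and *Il6st* it was found in 244 cells (7.85%, 6.93 to 8.85), and for both TNF receptor genes in 60 (1.93%, 1.48 to 2.48). The 234 cells were part of the 381 with a fragment at *Ifnar2*, and the 287 part of the 502 with one at *Ifngr2*. Whether the promoters of a pair were open together in a cell was not tested, and these counts do not show it. Cells with a fragment at a promoter had a mean of 1.70 there at *Ifngr1* and 1.19 at *Tlr4*.

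Barcodes not called as cells held 8.41% of all fragments and 4.77% of those at strongly open promoters. At the 10 receptor promoters their share ran from 4.30% at *Il6st* to 7.35% at *Tlr4*. The level of *Il1r1* per 10000 fragments was 0.0723 in the shallowest 25% of cells and 0.103 in the deepest 25%, and that of *Ifnar1* was 0.914 and 0.707. *Il1r1* was the only one of the 10 with the higher value in the deepest 25%, and *Ifnar1* had the largest relative fall. The other 8 were lower there by less, from 0.0795 and 0.0786 at *Tlr4* to 0.137 and 0.121 at *Tnfrsf1b*. These levels rest on 1 library and no interval was made for them.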
